A study of Mus musculus with 6 samples.

Results

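The kinases, the phospholipase and the adaptors that carry a signal away from the pre-B cell receptor (pre-BCR) were followed in mouse progenitors given EBF1, Pax5 or an empty vector. They are 9 genes of the 20473 that the arrays measured with a probe set of 1 gene symbol: the kinases Lyn, Blk, Syk and Btk, the phospholipase Plcg2, and the adaptors Blnk, Pik3ap1, Dapp1 and Bank1. Probe sets were taken by the gene symbol of the deposited annotation, which names 8 of them directly. Syk stands there under its older symbol Sykb and was found through its gene identifier. Each gene had 1 probe set, and all 9 were among the 15295 genes bright enough to be tested. Blnk passed this brightness filter through the arrays of cells given Pax5, with means under the filter's 30th percentile in the other groups.

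EBF1 cells had received the retrovirus MigY-EBF1, Pax5 cells the retrovirus MigR-Pax5 and Control cells the empty MigR1 virus. All 3 groups were the same cultured pre-pro-B cell line, which is Ebf1-/- throughout, so the Control cells lack Ebf1 as well and all results come from 1 line. It was grown on an OP9 stromal layer in medium with the cytokines IL-7, flt3-ligand and SCF. RNA was taken from sorted cells 24 hours after transduction and read on 2 Affymetrix arrays for each group. No array of an empty MigY vector was analysed here, so EBF1 and the MigY backbone cannot be told apart. Nothing in the labels says that the 2 arrays of a group came from separate cultures, so the spread that p-values measure is that between these arrays and may be technical only.

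As background, the pre-BCR is made of an immunoglobulin heavy chain, the surrogate light chain and the signalling chains CD79A and CD79B. SRC family kinases such as LYN and BLK phosphorylate the signalling chains, SYK docks there, and SYK phosphorylates the adaptor BLNK, on which BTK and PLCG2 assemble so that PLCG2 can release calcium. A parallel branch runs through phosphoinositide 3-kinase (PI3K), which the adaptor PIK3AP1 (BCAP) recruits, and DAPP1 (Bam32) binds the lipids that PI3K makes. In the mouse, loss of Blnk partly blocks B cell development around the pre-B stage.

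Blnk was the member that set Pax5 cells apart. It rose an estimated 10.0-fold in Pax5 cells against Control cells. Its log2 difference between EBF1 and Control cells was 0.18, which did not pass the test. Every difference of the other members was under 2-fold. In EBF1 cells Plcg2 rose 1.4-fold while Dapp1 and Lyn fell, and in Pax5 cells Btk rose 1.38-fold while Dapp1 fell. Under 10 other settings of the test, the Blnk call passed in all, as did that of Dapp1 in EBF1 cells. Plcg2 passed in 8, Dapp1 in Pax5 cells in 7, Lyn in 6 and Btk in 4. By the authors' deposited adjusted p, no member was called against Control cells. Blnk, Lyn, Btk, Plcg2 and Dapp1 were called in at least 1 comparison, and Syk, Blk, Pik3ap1 and Bank1 were called in none. The calls of each comparison are set beside the share over all genes further below.

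The promoters of 4 members are shown first: Blnk for the largest change, Plcg2 for the rise in EBF1 cells, Dapp1 for the fall with both factors, and Bank1 because its window alone, among the members' windows, holds the letters of the EBF motif. Each is the RefSeq window from 250 bases before to 50 bases after the gene's start (GRCm38.p6), written 5′ to 3′ on the gene's strand. Capitals mark matches, on either strand, to 4 motifs: EBF (CCCNNGGG), the Pax5 core (GCNTGAC), the octamer (ATTTGCAT) and an ETS motif (GGAAGT). The octamer and the ETS motif were added after the Blnk promoter had been read.
Blnk (chr19:40994172-40994471, minus strand): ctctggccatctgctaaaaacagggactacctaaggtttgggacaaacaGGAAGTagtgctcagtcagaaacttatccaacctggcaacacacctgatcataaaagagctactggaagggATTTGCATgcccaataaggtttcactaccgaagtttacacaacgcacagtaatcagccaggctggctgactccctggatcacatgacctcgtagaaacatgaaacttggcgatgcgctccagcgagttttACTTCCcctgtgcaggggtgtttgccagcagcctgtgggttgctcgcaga
Plcg2 (chr8:117498025-117498324, plus strand): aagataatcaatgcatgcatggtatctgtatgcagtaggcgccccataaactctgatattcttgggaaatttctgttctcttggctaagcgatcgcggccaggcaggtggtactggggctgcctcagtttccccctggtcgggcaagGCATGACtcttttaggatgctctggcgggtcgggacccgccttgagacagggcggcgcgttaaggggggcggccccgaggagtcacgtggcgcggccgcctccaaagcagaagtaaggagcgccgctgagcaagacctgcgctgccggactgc
Dapp1 (chr3:137981500-137981799, minus strand): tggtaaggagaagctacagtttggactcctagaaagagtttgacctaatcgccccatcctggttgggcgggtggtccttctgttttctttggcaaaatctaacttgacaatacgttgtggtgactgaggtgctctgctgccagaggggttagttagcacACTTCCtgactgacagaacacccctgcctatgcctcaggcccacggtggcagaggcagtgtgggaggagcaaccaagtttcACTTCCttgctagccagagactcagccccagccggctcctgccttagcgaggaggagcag
Bank1 (chr3:136326017-136326316, minus strand): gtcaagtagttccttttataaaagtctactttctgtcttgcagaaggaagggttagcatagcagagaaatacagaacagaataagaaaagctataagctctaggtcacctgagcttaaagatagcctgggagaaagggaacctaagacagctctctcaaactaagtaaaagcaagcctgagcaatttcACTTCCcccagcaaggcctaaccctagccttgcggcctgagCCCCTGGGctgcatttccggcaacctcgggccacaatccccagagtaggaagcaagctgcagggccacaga

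Windows were found for 7 members, and Lyn and Blk are named only. The Blnk window holds 1 octamer, 130 bases before the start, and ETS matches 201 bases before the start and at the start itself. The Plcg2 window holds 1 Pax5 core match, 103 bases before the start, in a gene that was called with EBF1 and not with Pax5. The Dapp1 window holds ETS matches 91 and 10 bases before the start, and the Bank1 window an EBF match at 21 and an ETS match at 62 bases. Of the windows not printed, that of Pik3ap1 holds an ETS match at 114 bases, 1 of the 2 windows of Syk holds a Pax5 core at 189 bases and an ETS match just after the start, and the Btk window has no match to any of the 4 motifs. None of these matches overlaps another. Over all 32851 RefSeq windows of this length, 13.7% hold the EBF letters, 10.7% the Pax5 core, 1.74% the octamer and 23.8% the ETS motif. Every motif but the octamer is thus common. As the octamer and the ETS motif were added after the Blnk window had been read, their shares cannot say how unusual its matches are. A match describes letters in a window and not a bound site, and a window without one says nothing of the factor.

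All values below are log2 expression values after RMA, the authors' normalization, and a difference of 1 is a 2-fold change. Differences were tested with limma and adjusted over all 15295 genes, with calls at an adjusted p of 0.05. The transduced genes were read first. Pax5 read 11.33 to 11.42 in Pax5 cells and 4.93 to 5.10 in Control cells, and the brighter Ebf1 probe set read 9.88 to 9.96 in EBF1 cells and 8.87 in Control cells. The brighter set thus read high in Control cells too, although these are Ebf1-/-. The dimmer Ebf1 probe set (10375358) did not follow the vector, at 4.25 to 4.37 in EBF1 cells, 6.02 to 6.04 in Pax5 cells and 4.70 to 4.75 in Control cells. Whether it can read the vector's transcript was not tested. In EBF1 cells Pax5 itself read 6.01 to 6.17. Cell type markers of early lymphoid progenitors (Ptprc, Il7r, Flt3, Kit, Cd93, Dntt, Rag1, Rag2) stood between the 72.7th and 96.5th percentile of the Control arrays. Of these 8, 4 fell in EBF1 cells and 4 in Pax5 cells, and their summed linear value was 3330 to 3450 in EBF1, 3700 to 3790 in Pax5 and 4530 to 4560 in Control cells. The Pax5 arrays differed from each other more than the other pairs did, with an SD of the difference over genes of 0.263, against 0.161 in EBF1 and 0.152 in Control cells.

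**Figure D1:**
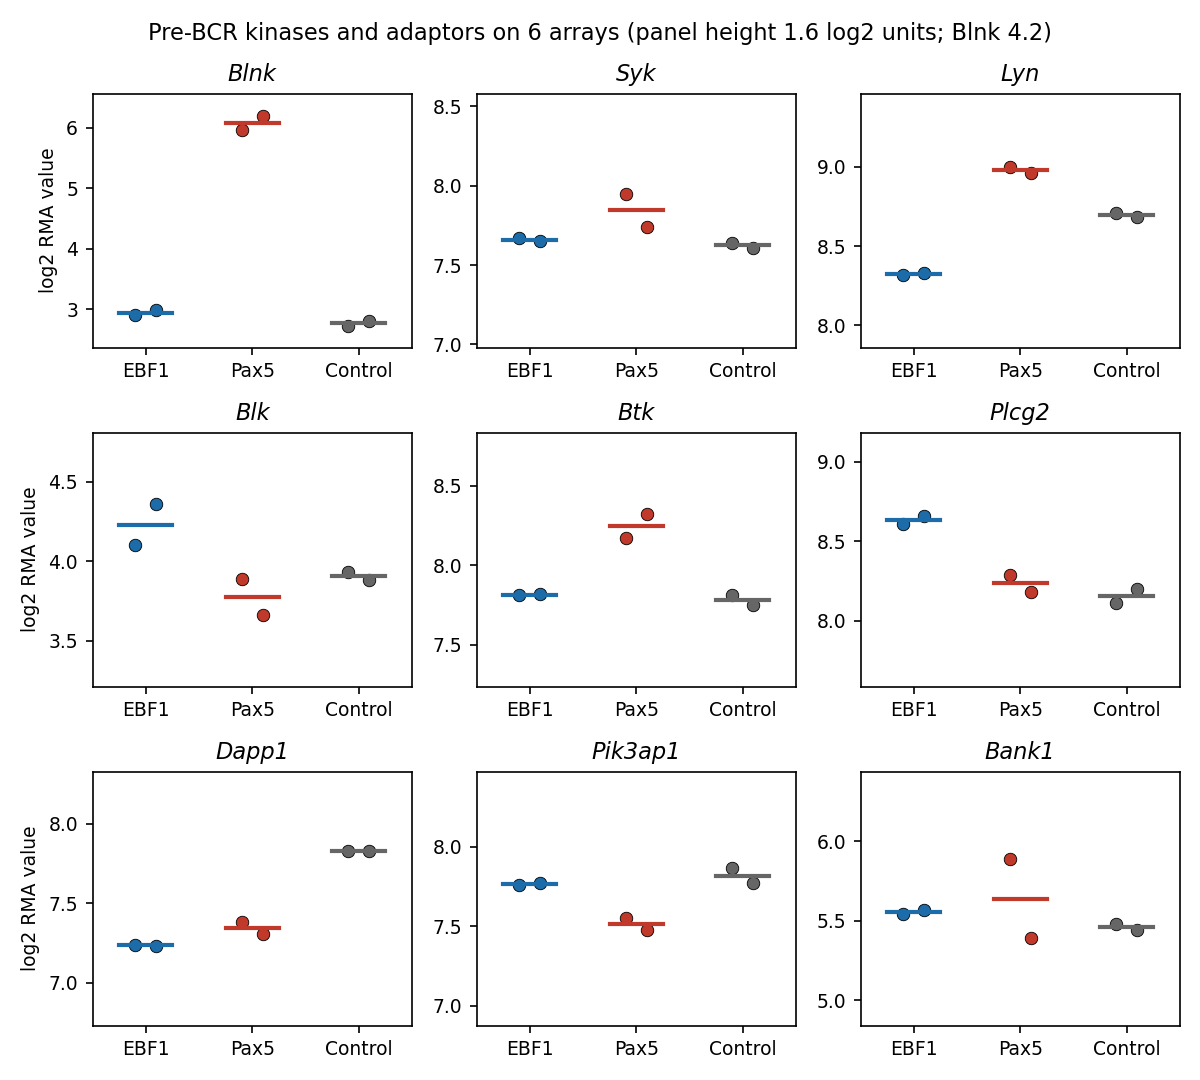
Log2 RMA value of each member on the 6 arrays (points) with the group mean (bar), 2 arrays per group, for EBF1, Pax5 and Control cells; every panel spans the same number of log2 units except that of Blnk, and levels are not comparable between panels. Blnk is near 6 on both Pax5 arrays and under 3 on the other 4, and Lyn is ordered Pax5, Control, EBF1 with no overlap.

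Among the receptor-proximal kinases, Lyn moved apart between the factors. Lyn, an SRC family kinase that both starts and restrains B cell receptor signals (probe set 10503098, chromosome 4), read 8.32 and 8.33 in EBF1 cells, 9.00 and 8.96 in Pax5 cells, and 8.71 and 8.68 in Control cells. EBF1 cells were lowest, Pax5 cells highest, and no group overlapped another. Lyn fell in EBF1 cells against Control cells, with a log2 difference of -0.37 (SE 0.07, limma adjusted p = 0.0413), and the direct comparison of EBF1 with Pax5 cells gave -0.65 (95% interval -0.83 to -0.48, adjusted p = 0.00398), a level 1.57-fold lower in EBF1 cells. The difference of 0.28 between Pax5 and Control cells did not pass (adjusted p = 0.101), although it passed with trended, robust variances (adjusted p = 0.0069) and with the stricter filter on low values (adjusted p = 0.0475). The call in EBF1 cells against Control cells passed under 6 of 10 other limma settings and ended with equal medians (adjusted p = 0.0589), no filter (0.0743), a replicate block (0.0792) and all probe sets (0.0922).

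Blk, the SRC family kinase largely restricted to B cells (probe set 10420758, chromosome 14), read 4.10 and 4.36 in EBF1 cells, 3.89 and 3.66 in Pax5 cells, and 3.93 and 3.88 in Control cells. The EBF1 arrays were the higher ones, and Pax5 and Control arrays overlapped. Neither the difference of 0.32 between EBF1 and Control cells (95% interval 0.02 to 0.62, adjusted p = 0.217) nor that of 0.46 between EBF1 and Pax5 cells (adjusted p = 0.0587) passed. Without the array Pax5 1 the EBF1 against Pax5 difference was 0.57 and passed (adjusted p = 0.0293), while it was 0.34 without Pax5 2 (adjusted p = 0.152) and 0.33 without EBF1 2 (adjusted p = 0.259). Without EBF1 2 the difference from Control cells was 0.19. Pax5 and Control cells differed by -0.14 (adjusted p = 0.567), and by -0.25 without Pax5 1 and -0.02 without Pax5 2. The mean level lay between the 45.1st and 51.1st percentile of the arrays, in the middle by rank but low in log2 units. Its group means were 3.77 to 4.23, while every other member except Blnk had group means of 5.46 or higher. The stricter filter on low values removed Blk. RMA values flatten toward the background, so its differences may be understated, which limits what the missing calls can show.

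Syk, the kinase that binds the phosphorylated signalling chains (probe set 10405216, chromosome 13), read 7.67 and 7.65 in EBF1 cells, 7.95 and 7.74 in Pax5 cells, and 7.64 and 7.61 in Control cells. The Pax5 arrays were the higher ones and also the most spread. No comparison passed. EBF1 and Control cells differed by 0.04 (95% interval -0.19 to 0.26, adjusted p = 0.897), Pax5 and Control cells by 0.22 (95% interval 0.00 to 0.45, adjusted p = 0.244), and EBF1 and Pax5 cells by -0.19 (adjusted p = 0.236). Without Pax5 1 and without Pax5 2, the Pax5 against Control difference was 0.12 and 0.33, and the EBF1 against Pax5 difference -0.08 and -0.29, none of which passed. With Syk's SE of 0.09, a difference of about 0.45 to 0.47 would have been needed to pass against Control cells.

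Blnk, the scaffold phosphorylated by SYK (probe set 10467508, chromosome 19), read 2.90 and 2.99 in EBF1 cells, 5.97 and 6.20 in Pax5 cells, and 2.73 and 2.80 in Control cells. The Pax5 arrays were far above all others. Relative to Control cells the log2 difference in Pax5 cells was 3.32 (SE 0.10, 95% interval 3.08 to 3.56, adjusted p = 0.000125). The Control mean lay at the 25.3rd percentile of the arrays and the EBF1 mean at the 29.9th, where RMA values flatten toward the background. The folds may therefore be understated. EBF1 cells stood an estimated 8.82-fold below Pax5 cells (log2 difference -3.14, 95% interval -3.38 to -2.9, adjusted p = 0.00011). Between EBF1 and Control cells the difference was 0.18 (95% interval -0.06 to 0.42, adjusted p = 0.392), with both groups in the dim range. Both Blnk calls passed without any single array, over a range of 3.21 to 3.43 for Pax5 against Control, and under all 10 other settings of the limma analysis. In the authors' deposited table the adjusted p for Blnk was 0.0627 for Pax5 against Control and 0.0331 for EBF1 against Pax5.

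Btk, the TEC family kinase that activates PLCG2 (probe set 10606694, chromosome X), read 7.81 and 7.82 in EBF1 cells, 8.17 and 8.32 in Pax5 cells, and 7.81 and 7.75 in Control cells. Pax5 arrays were the higher ones, and EBF1 and Control arrays were close together. Btk rose in Pax5 cells, with a log2 difference of 0.46 from Control cells (SE 0.08, adjusted p = 0.0377) and of -0.42 for EBF1 against Pax5 cells (adjusted p = 0.024). EBF1 and Control cells differed by 0.04 (95% interval -0.16 to 0.24, adjusted p = 0.861). Leaving out Pax5 1 gave a difference of 0.54 between Pax5 and Control cells (adjusted p = 0.018), and leaving out any of the other 5 arrays in turn ended that call, with adjusted p up to 0.272. It passed under 4 of 10 other limma settings and ended with equal medians (adjusted p = 0.0545), array weights (0.0546), no filter (0.064), a replicate block (0.0737), all probe sets (0.0814) and only the 2 groups compared (0.113). The call between EBF1 and Pax5 cells passed under 8 of 10, ending over all probe sets (0.051) and with only the 2 groups (0.0677).

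Plcg2, the phospholipase at the end of this assembly (probe set 10575799, chromosome 8), read 8.61 and 8.66 in EBF1 cells, 8.29 and 8.18 in Pax5 cells, and 8.11 and 8.20 in Control cells. The EBF1 arrays were the higher ones, and Pax5 and Control arrays overlapped. Plcg2 rose in EBF1 cells, by 0.48 over Control cells (SE 0.08, adjusted p = 0.0282) and by 0.40 over Pax5 cells (adjusted p = 0.0275). The difference of 0.08 between Pax5 and Control cells did not pass (95% interval -0.12 to 0.28, adjusted p = 0.606). Leaving out any array of EBF1 or Control cells ended the first of these calls, with differences of 0.44 to 0.53 and adjusted p up to 0.229. The call against Pax5 cells passed without Pax5 1 and ended without any of the other 5 arrays, with adjusted p up to 0.157. Of 10 other limma settings, 8 kept the call against Control cells, which ended with a replicate block (adjusted p = 0.0597) and over all probe sets (0.0628). The call against Pax5 cells passed under 6 and ended with array weights (0.0503), a block (0.0514), all probe sets (0.0579) and only the 2 groups (0.0696).

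Of the other 3 adaptors, Dapp1 alone was called. Dapp1, whose pleckstrin homology domain binds PI3K products at the membrane (probe set 10502359, chromosome 3), read 7.24 and 7.23 in EBF1 cells, 7.38 and 7.31 in Pax5 cells, and 7.83 on both Control arrays. Both transduced groups lay below Control cells with no overlap. Dapp1 fell by 0.59 on the log2 scale in EBF1 cells (SE 0.07, adjusted p = 0.0106) and fell by 0.49 in Pax5 cells (SE 0.07, adjusted p = 0.0229), 2 comparisons that share the Control arrays. EBF1 and Pax5 cells differed by -0.11 (95% interval -0.29 to 0.07, adjusted p = 0.386). The EBF1 call held under all 10 other limma settings and ended without any array of EBF1 or Control cells, with adjusted p up to 0.117. The Pax5 call passed without Pax5 1 and ended without any of the other 5 arrays, with adjusted p up to 0.199. It passed under 7 of 10 other settings and ended with a replicate block (0.0518), over all probe sets (0.0522) and with only the 2 groups (0.0803).

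Pik3ap1, which recruits PI3K (probe set 10467578, chromosome 19), read 7.76 and 7.77 in EBF1 cells, 7.55 and 7.48 in Pax5 cells, and 7.87 and 7.77 in Control cells. The Pax5 arrays were the lower ones. The difference of -0.30 between Pax5 and Control cells did not pass (95% interval -0.49 to -0.11, adjusted p = 0.104), but did with trended, robust variances (adjusted p = 0.0172). EBF1 and Control cells differed by -0.06 (adjusted p = 0.776) and EBF1 and Pax5 cells by 0.24 (adjusted p = 0.0949).

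Bank1, a relative of PIK3AP1 that binds LYN (probe set 10502335, chromosome 3), read 5.54 and 5.57 in EBF1 cells, 5.89 and 5.39 in Pax5 cells, and 5.48 and 5.44 in Control cells. The 2 Pax5 arrays lay on either side of all others, the widest spread of a member (SD 0.35, n = 2). The difference of 0.18 between Pax5 and Control cells (adjusted p = 0.553) turned to -0.07 without Pax5 1, and that of -0.09 between EBF1 and Pax5 cells (adjusted p = 0.759) turned to 0.16. EBF1 and Control cells differed by 0.10 (95% interval -0.29 to 0.48, adjusted p = 0.815). At an SE of 0.16, differences of 0.63 to 0.81 would have been needed to pass, so changes of the size seen in Btk or Plcg2 could not have been called for Bank1.

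**Figure D2:**
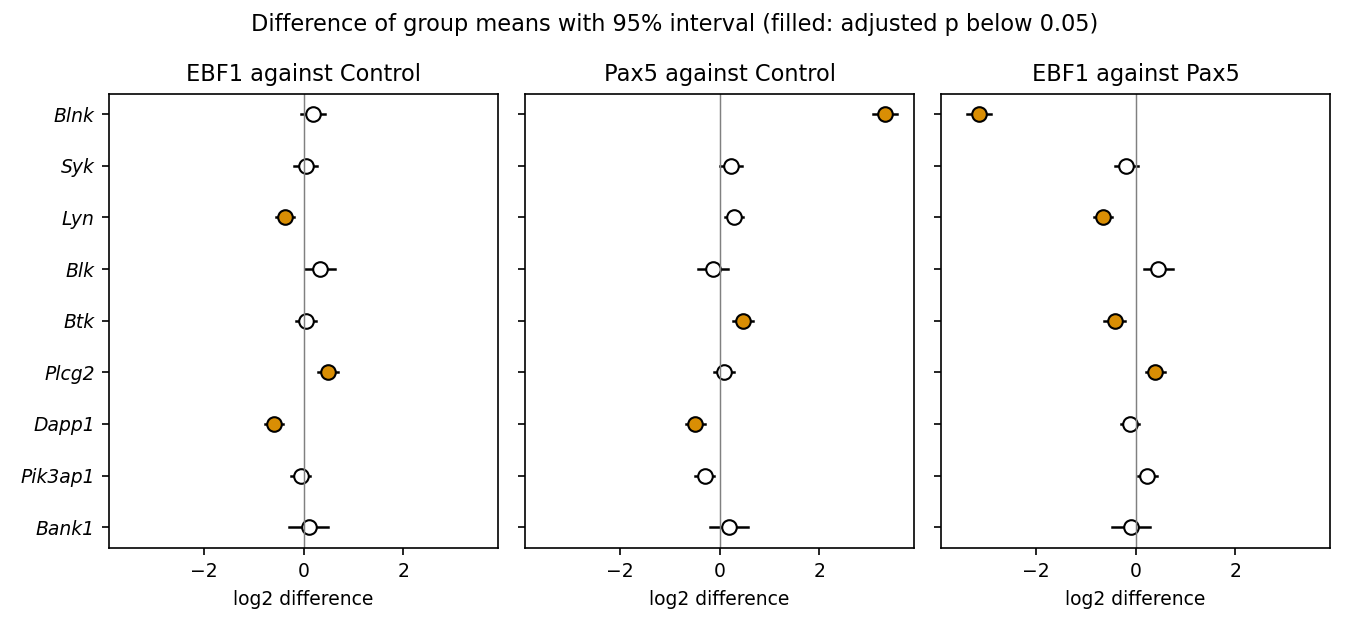
Log2 difference of group means for each member (points) with its 95% interval from limma (lines), in the comparisons EBF1 against Control, Pax5 against Control and EBF1 against Pax5; filled points passed at an adjusted p of 0.05. Blnk is the only member beyond 1 log2 unit, at 3.32 for Pax5 against Control and -3.14 for EBF1 against Pax5.

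Counted together, 1 member rose and 2 fell in EBF1 cells against Control cells, where 5.6% of all tested genes were called, 3.14% higher and 2.46% lower. In Pax5 cells 2 rose and 1 fell against Control cells, where 4.22% of all genes were called, 2.16% higher and 2.06% lower. EBF1 and Pax5 cells differed in 4 members, Plcg2 higher and Blnk, Lyn and Btk lower in EBF1 cells, where 13.9% of genes were called, 8.71% higher and 5.2% lower. The arrays of the groups did not overlap for 9 of 9 members in EBF1 against Control (56.0% of all genes), 6 in Pax5 against Control (51.4%) and 8 in EBF1 against Pax5 (56.4%), with gaps of 0.01 or less for Syk, Btk and Pik3ap1 in the first. The median log2 difference of the members was 0.04 in EBF1, against 0.01 over all genes, and 0.18 in Pax5, against -0.04. Between EBF1 and Pax5 cells it was -0.11, against 0.04 over all genes. The members did not move as a block: each comparison held members in both directions.

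Of 10 member calls, 2 passed when each array in turn was left out, both of them Blnk. The call of Lyn between EBF1 and Pax5 cells passed in 5 of 6 such fits and missed without EBF1 1 (adjusted p = 0.0502). A fit without 1 array leaves a group with a single array, which is assumed to vary like the other groups. Leaving out either array of the group outside a comparison gave the same result as fitting only the 2 groups compared. The 6 fits are therefore not 6 separate checks. The Lyn call in EBF1 cells ended without any array of EBF1 or Control cells, at differences of -0.39 to -0.36 and adjusted p up to 0.277, and the Btk call between EBF1 and Pax5 cells passed only without Pax5 1, with adjusted p up to 0.142.

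Other cells of the culture were read alongside the members, since Lyn, Syk, Btk, Plcg2 and Dapp1 are also expressed in myeloid cells. Of 9 myeloid markers, 7 were bright enough to be tested and 3 of them fell in EBF1 cells, Itgam (-1.06), Adgre1 (-0.72) and Fcgr3 (-0.59). The summed linear value of the list was 543 to 598 in EBF1 cells, 644 to 732 in Pax5 cells and 829 to 836 in Control cells. Against Control cells, Lyn (-0.37) and Dapp1 (-0.59) fell in EBF1 cells, Plcg2 (0.48) rose, and Syk and Btk were not called. In Pax5 cells Btk (0.46) rose, Dapp1 (-0.49) fell, and Lyn, Syk and Plcg2 were not called. In Pax5 cells Mpo, the myeloperoxidase of granulocyte precursors, fell by 1.03, the only myeloid marker called. Csf1r, Elane and Cd14 lay between the 36.5th and 41.4th percentile of the Control arrays, among the dimmer genes, and Csf3r and Lyz2 were too dim to test. Of 9 OP9 stroma markers, 7 were tested and 1, Bgn, rose in EBF1 cells (0.62), with list sums of 662 to 668 in EBF1, 570 to 686 in Pax5 and 475 to 492 in Control cells. None of the 5 tested T cell markers was called, with sums of 151 to 162 in EBF1, 177 to 192 in Pax5 and 154 to 166 in Control cells, and none of the 5 mast cell markers was bright enough to test. The part of these markers, those of lymphoid progenitors included, in the members' results was not tested, and in bulk samples fewer cells of a type and less RNA per cell cannot be told apart.

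The rest of the pathway was read from 6 lists holding 95 other genes, chosen with earlier results of these data known. Of 90 tested, 10 rose and 7 fell in EBF1 cells (18.9% called, 5.6% over all genes), and 12 rose and 4 fell in Pax5 cells (17.8%, 4.22% over all genes). Between the factors, 15 were higher and 17 lower in EBF1 than in Pax5 cells (35.6%, 13.9% over all genes). Because of how the lists were chosen, their larger shares are not read as a result. Of these calls, 5 in EBF1 cells, 2 in Pax5 cells and 12 between the factors passed without each array in turn. Against Control cells these were Igll1, Vpreb1, Vpreb2, Cd79b and Txk in EBF1 cells, and Igll1 and Pag1 in Pax5 cells. All other list calls against Control cells, among them those of Pik3cg, were lost when some array was left out. No list was tested as a set.

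The receptor chains above the kinases held the largest rises. Of 8 chains and coreceptors, 4 rose in EBF1 cells, the surrogate light chain genes Igll1, Vpreb1 and Vpreb2 and the signalling chain Cd79b, and none fell. In Pax5 cells 4 rose, with Igll1 (2.70), Vpreb1 (1.06) and Vpreb3 (1.99) among them. In the direct comparison Vpreb3 was lower in EBF1 than in Pax5 cells (-1.85), and Igll1, Vpreb1, Vpreb2 and Cd79b were higher (2.74 to 5.36). Cd79b averaged 9.46 in EBF1 cells, 4.10 in Pax5 cells and 4.04 in Control cells, so Pax5 cells, in which Blnk rose, differed from Control cells by 0.05 in Cd79b (adjusted p = 0.901). Cd79a, whose product pairs with CD79B, differed from Control cells by 0.07 in EBF1 and 0.26 in Pax5 cells and did not pass. Its means lay between the 31.1st and 34.4th percentile of the arrays, in the dim range near that of Blnk in EBF1 cells, which limits what its probe set can show. Vpreb1 and Vpreb2 are near-identical copies, and their values are uncertain one by one.

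Of 9 tested relatives of the kinases, Txk, a TEC family kinase known from T cells, fell by 1.18 in EBF1 cells (adjusted p = 0.00168), and none was called in Pax5 cells. Tec, the family's namesake, did not pass against Control cells with either factor, at -0.16 with EBF1 and 0.35 with Pax5, and was lower in EBF1 than in Pax5 cells by a log2 difference of -0.51 (adjusted p = 0.0159), as was Txk (-1.0, adjusted p = 0.00114). Among 22 other adaptors, Lat, a membrane scaffold best known in T cells, rose by 0.74 in EBF1 cells (adjusted p = 0.0109). Lcp2 (SLP-76), the T cell and myeloid relative of BLNK, fell by 0.74 in EBF1 cells (adjusted p = 0.0088). Clnk, a further member of that family, fell by 0.38 in EBF1 cells (adjusted p = 0.0462) and fell by 0.82 in Pax5 cells (adjusted p = 0.00498). So while Blnk rose in Pax5 cells its relative Clnk fell, and Lcp2 differed there by -0.38 without passing (adjusted p = 0.0764). In Pax5 cells Vav2, a guanine nucleotide exchange factor, rose by 0.76 and the docking adaptor Gab2 fell by 0.45. Between the factors Lat (0.84), Clnk (0.44), Gab2 (0.41) and Dok2 (0.39) were higher in EBF1 cells, and Lat2 (-0.63) and Lcp2 (-0.36) were lower.

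Around PI3K, the catalytic subunit Pik3cg moved in opposite directions: it fell by 0.47 in EBF1 cells (adjusted p = 0.0357) and rose by 0.57 in Pax5 cells (adjusted p = 0.0226), and the direct comparison gave -1.04 (adjusted p = 0.00157). The regulatory subunit Pik3r1 fell with both, with differences of -0.58 in EBF1 and -0.41 in Pax5 cells, and the catalytic subunit Pik3cb fell by 0.46 in Pax5 cells. The other 9 of 12 genes in this list were not called against Control cells, and Pik3r2 (0.62), Pik3r5 (0.64) and Akt2 (0.31) were higher in EBF1 than in Pax5 cells. Downstream of PLCG2, where 20 genes were tested, Itpr3 (0.74), Itpr2 (0.50), Nfatc3 (0.46) and Rasgrp2 (0.55) rose in EBF1 cells, which also had the higher Plcg2. Itpr2 and Itpr3 encode calcium release channels, and Rasgrp2 an exchange factor activated by calcium and diacylglycerol. Rasgrp3 fell there, with a difference of -0.77, to a mean of 2.52. That mean lay below the lower quartile of the EBF1 arrays (2.74 to 2.76), so the size of the fall may be understated. In Pax5 cells Stim2, a calcium sensor, rose by 0.47 and Rasgrp2 by 0.62. EBF1 cells stood above Pax5 cells in Itpr3 (0.70) and the kinase gene Prkca (0.57), and below them in Stim2 (-0.63) and Rasgrp3 (-1.07).

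Of 19 tested genes listed as inhibitors, 4 rose and 0 fell in Pax5 cells (2.16% and 2.06% over all genes). In EBF1 cells 1 rose and 1 fell (3.14% and 2.46% over all genes). The list also holds the phosphatase genes Ptprc and Ptprj, and whether each gene inhibits in these cells was not tested. Pag1, the membrane anchor of the inhibitory kinase CSK, rose by 1.52 in Pax5 cells (adjusted p = 0.000944), Ptpn22, a phosphatase that acts on SRC and SYK family kinases, by 1.08 (adjusted p = 0.00377), the lectin receptor Siglecg by 1.01 (adjusted p = 0.0115) and the B cell coreceptor Cd72 by 0.97 (adjusted p = 0.0108). Csk itself fell by 0.56 in EBF1 cells (adjusted p = 0.0241), the same cells in which Lyn fell, and Cd72 rose there by 0.63. Between the factors 8 inhibitors were lower in EBF1 than in Pax5 cells: Pag1 (-1.75), Ptpn22 (-1.15), Siglecg (-0.84), Csk (-0.79), the Fc receptor Fcgr2b (-0.73), the lipid phosphatase Inppl1 (-0.58), the ubiquitin ligase Cblb (-0.54) and the adaptor Sla (-0.40). Ptpn6, the phosphatase SHP-1, was higher by 0.50.

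**Figure D3:**
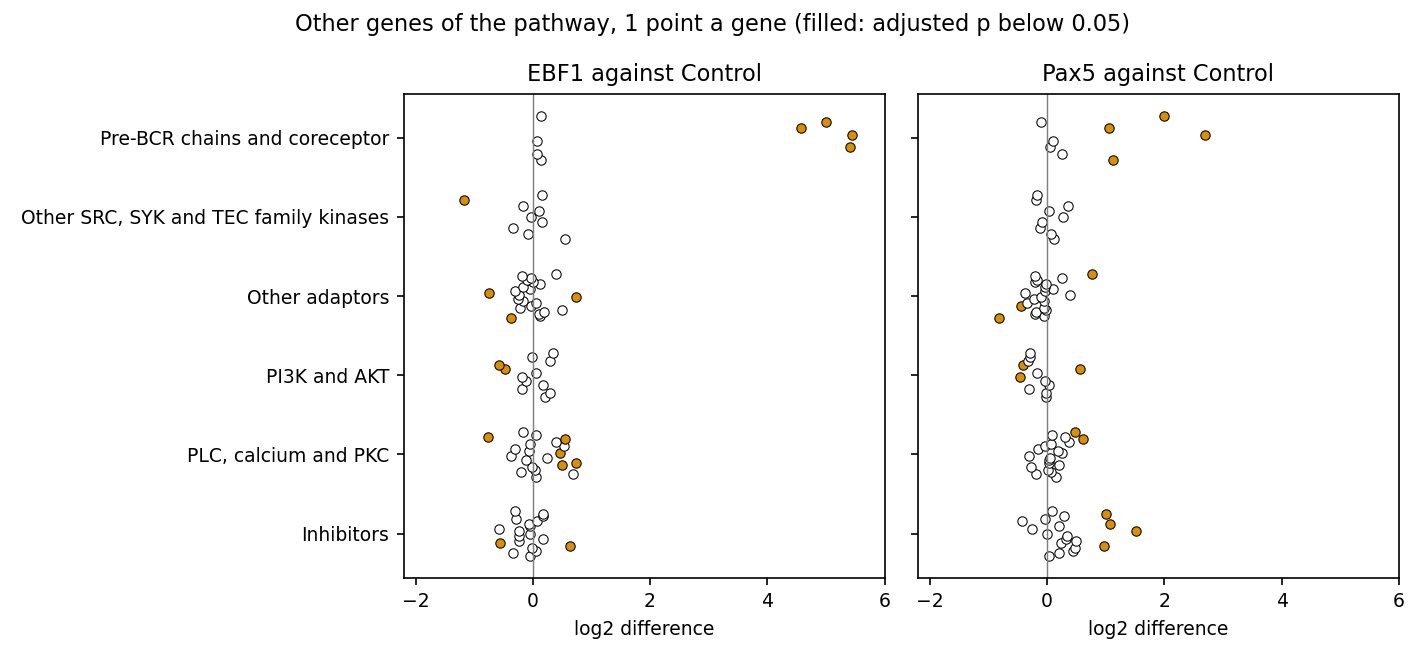
Log2 difference of each tested gene of 6 lists of pathway genes (1 point a gene, spread vertically only for clarity), for EBF1 against Control and Pax5 against Control; filled points passed at an adjusted p of 0.05. The 4 receptor chains that rose with EBF1 lie beyond 4 log2 units, and the 4 inhibitors called with Pax5 lie near 1 to 1.5.

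Genes with the pattern most like each called member were found by the Euclidean distance of their 6 array values, each centred on its own mean. For Blnk the nearest was Cpn1, a carboxypeptidase subunit that also lies on chromosome 19 (distance 0.214 log2 units, r = 0.999 over the 6 arrays), with a difference of 3.22 between Pax5 and Control cells. The next was Irf4, a B-lineage transcription factor (distance 0.539), also at 3.22. For Lyn they were Krit1 and Phlpp1, for Btk Trp53inp1 and Fam107b, for Plcg2 Tpst2 and Cdkn2aipnl, and for Dapp1 Dlg4 and Ern1, all at distances of 0.0551 to 0.111. With 3 groups of 2 arrays, small distances describe only the order and size of group means.

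Blnk and Pik3ap1, and Bank1 and Dapp1, lie near each other on the genome. In the RefSeq gene order Blnk and Pik3ap1 are on chromosome 19 with 4 protein-coding genes between them, of which 3 were tested. Dntt, which encodes terminal transferase and is the next gene to Blnk, fell by 1.75 in EBF1 cells (adjusted p = 0.00215) and fell by 1.27 in Pax5 cells (adjusted p = 0.00574). Blnk and its neighbour therefore moved in opposite directions in Pax5 cells, while Tll2 and Tm9sf3 did not pass. On chromosome 3, 7 genes lie between Bank1 and Dapp1, and 5 were tested. Of these, Ppp3ca, Ddit4l and H2az1 did not pass against Control cells with either factor. Lamtor3, next to Dapp1, fell by 0.46 in EBF1 cells (adjusted p = 0.047) and differed by -0.40 in Pax5 cells, which did not pass (adjusted p = 0.077). Dnajb14, beyond it, differed by -0.31 in EBF1 cells (adjusted p = 0.117) and fell by 0.48 in Pax5 cells (adjusted p = 0.0429). The genes beyond Dapp1 that were tested, Mttp and Trmt10a, did not pass.

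**Figure D4:**
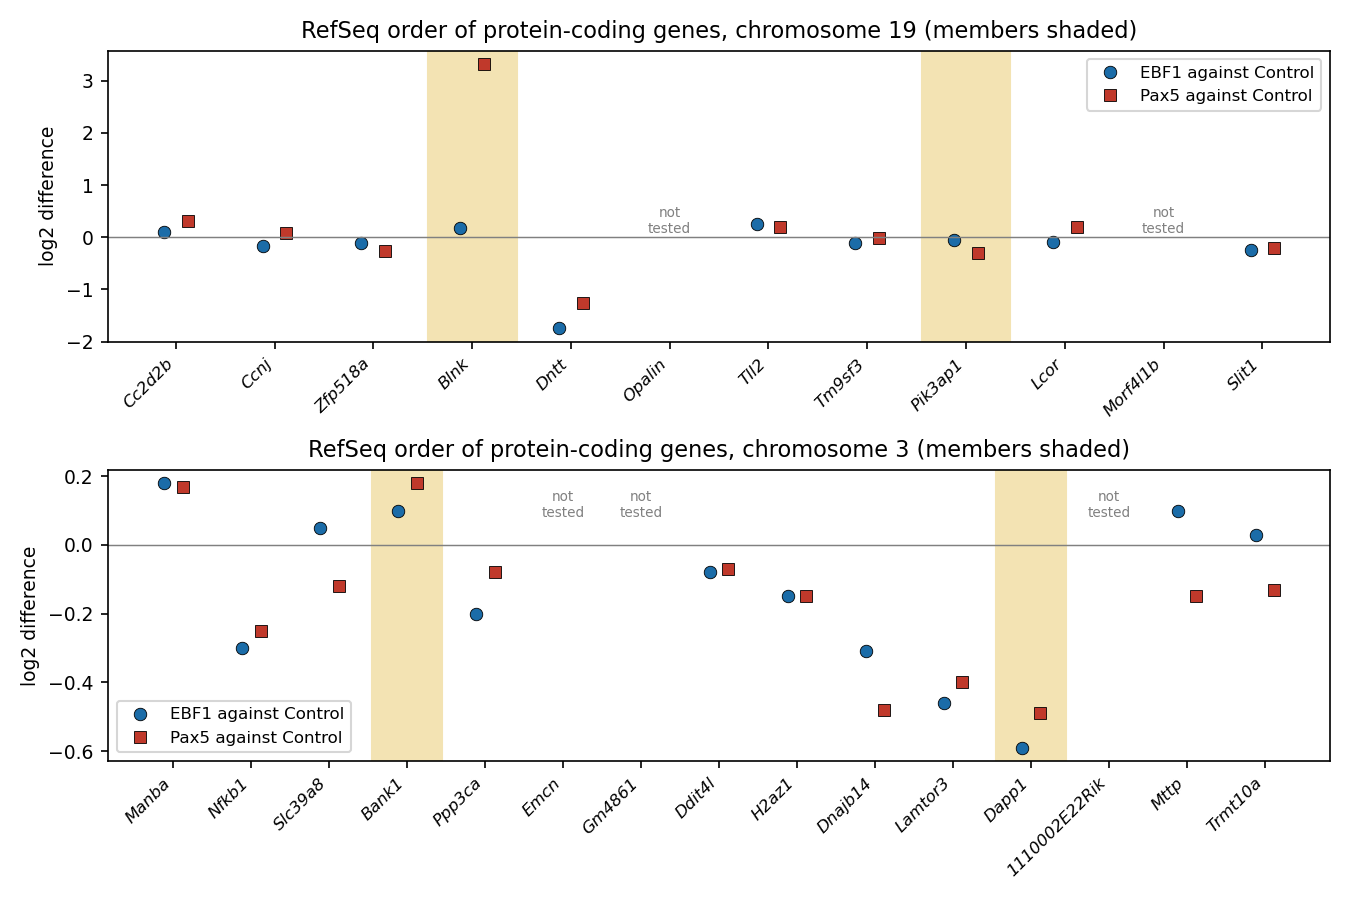
Log2 difference against Control of Blnk, Pik3ap1, Bank1 and Dapp1 (shaded) and their neighbours in RefSeq gene order, with circles for EBF1 and squares for Pax5; positions along the axis are order and not distance. Blnk stands at 3.32 with Pax5 beside Dntt at -1.27, and Lamtor3 (-0.46 and -0.40) and Dnajb14 (-0.31 and -0.48) lie below 0 beside Dapp1 (-0.59 and -0.49).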

How the data were processed

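RNA of 6 samples was amplified from 50 ng with a NuGEN whole-transcriptome kit and hybridised to Affymetrix arrays, 1 per sample, per the labels' protocols. The authors deposited log2 values per probe set, made with RMA and Partek 6.5, per the submitters' processing notes. The deposited comparison table repeats them and, per the file headers, adds step-up adjusted p-values for each pair of groups, which are printed here only where the authors' table is named. RMA options, the annotation version and its build were not given in the sources used here.

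Symbols came from the deposited annotation, updated through gene identifiers to RefSeq (GRCm38.p6), which was used for names, gene order and promoter sequence. Of 28350 probe sets, 22969 carried 1 symbol, and 2532 of these received a newer one. The brightest probe set stood for a gene. Genes above the 30th percentile of an array on at least 2 arrays were tested, with limma 3.58.1 in R 4.3.3 (1 model of 3 group means, two-sided, Benjamini-Hochberg over 15295 genes, called at 0.05). The filter ignores groups, but Blnk passed it through the Pax5 arrays, where it is high. With no filter the limma call of Blnk in Pax5 against Control cells remained (adjusted p = 0.000167). The model had 3 residual and 3.18 prior degrees of freedom, and was tested on simulated data. With 2 arrays per group, their number limits the precision, and RMA values carry no detection call.

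Named genes are all members, the transduced genes, pathway genes called in any comparison (some are not reported here), and the 2 genes nearest in pattern to each called member. Cd79a, the cell type markers and the neighbours in gene order were named beyond this rule, after their values were seen. Members, lists and motifs were chosen with earlier results of these data known. Alternatives varied the filter, the probe set rule, normalization, moderation, the arrays in the fit, a replicate block, array weights (added after seeing the data) and each array left out.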

Additional observations from a re-analysis of the deposited data

How the results depend on the processing

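Each result was recomputed under 10 other limma settings (9 for Blk, which the filter at the 50th percentile removed), with the authors' adjusted p, and in 6 fits without 1 array each. Over the 9 members and 3 comparisons, 2 differences changed sign, both of Bank1. Without Pax5 1 it was -0.07 for Pax5 against Control and 0.16 for EBF1 against Pax5, and without Pax5 2 it was 0.43 and -0.34. The Blnk calls passed in every limma fit run. Members called in EBF1 against Control numbered 3, but 1 over all probe sets and with a replicate block, 0 by the authors' deposited adjusted p, and 0 to 3 with 1 array left out. In Pax5 against Control they numbered 3, but 1 over all probe sets, with only the 2 groups compared and with the block, 5 with trended, robust variances, 0 by the authors' p, and 1 to 3 with 1 array left out. In EBF1 against Pax5 they numbered 4, but 2 over all probe sets, with only the 2 groups and by the authors' p, and 1 to 5 with 1 array left out. The cause was not tested.

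Genes called moved as follows. EBF1 against Control gave 857, but 558 over all probe sets, 1855 with array weights, 1786 with trended, robust variances, 1324 with the filter at the 50th percentile, 1424 with only the 2 groups, 565 with the block and 6 by the authors' p, and 103 to 1424 with 1 array left out. Pax5 against Control gave 646, but 1643 with trended, robust variances, 1000 with the stricter filter, 240 with only the 2 groups, 412 with the block and 20 by the authors' p, and 60 to 2407 with 1 array left out, the highest without Pax5 1. EBF1 against Pax5 gave 2128, but 3369 with trended, robust variances, 1093 with only the 2 groups and 449 by the authors' p, and 410 to 3884 with 1 array left out. Deviations of same-numbered arrays from their group means correlated between groups at -0.0115 to 0.00936, so no pairing was seen over all genes together. A pairing that touches only some genes could be missed this way, and the labels do not say how the arrays were paired. Why a call was lost under the block was not tested. A fit without 1 array leaves a group with a lone sample that is assumed to vary like the other groups.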
